A study of Mus musculus with 3 samples.

Results

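The bone morphogenetic protein (BMP) ligands *Bmp2*, *Bmp4*, *Bmp5*, *Bmp6* and *Bmp7* were followed in single cells of inguinal fat. They were picked by symbol from the 32285 genes of the count table, and all 5 were found there, each in 1 entry. The questions asked of the data were which cells carried the RNA of each ligand, and how its level differed between mice with and without matrix Gla protein (*Mgp*), a secreted protein of the extracellular matrix that is known to bind BMPs.

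Cells of the stromal vascular fraction, which is what collagenase frees from fat once the floating adipocytes are gone, came from the inguinal fat of 4-week-old mice and were sorted to remove Cd45+ and dead cells. There was 1 library per genotype: wild-type, *Mgp*-KO with a global deletion (B6.129S7-Mgptm1Kry/KbosJ), and *Pd*-KO, in which *Mgp* flox/flox was deleted by a *Pdgfra*-cre transgene that acts in cells with a history of *Pdgfra* expression. Each library pooled cells of several mice of both sexes, the wild-type library served as the control of both knockouts, and no library of floxed mice without Cre was analysed here. All 3 libraries were treated as 1 batch here. The file headers name another software version for wild-type than for the knockouts, as given below.

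BMP ligands are made as large precursors, cut by proprotein convertases and released as dimers. They bind type I and type II serine/threonine kinase receptors, which phosphorylate SMAD proteins that switch on targets such as the *Id* genes, while secreted binders such as noggin hold the ligands back. In fat, BMP signalling is known to take part in the commitment of mesenchymal progenitors to adipocytes. *Bmp2* and *Bmp4* form one branch of the family, and *Bmp5*, *Bmp6* and *Bmp7* form another.

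The end of the coding sequence shows these branches. It lies in the last exon of each gene and codes for the tail of the mature ligand with its conserved cysteines. The last 48 coding bases, stop codon included, are given 5′ to 3′ from GENCODE M21 (GRCm38); capitals mark the 8 bases that are alike within each branch and differ between *Bmp2* and *Bmp4* on one side and *Bmp5*, *Bmp6* and *Bmp7* on the other.
Bmp2: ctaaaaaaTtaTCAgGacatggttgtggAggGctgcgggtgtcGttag
Bmp4: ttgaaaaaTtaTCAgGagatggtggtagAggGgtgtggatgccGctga
Bmp5: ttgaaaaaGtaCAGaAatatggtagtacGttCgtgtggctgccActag
Bmp6: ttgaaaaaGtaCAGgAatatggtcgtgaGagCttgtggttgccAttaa
Bmp7: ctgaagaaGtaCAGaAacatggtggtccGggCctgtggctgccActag
All 5 genes share 23 of these 48 bases. Over the conserved end of the coding sequence, aligned in at most 310 positions up to the stop codon, identity was 79.4% between *Bmp2* and *Bmp4*, 80.7% between *Bmp5* and *Bmp6*, 77.8% between *Bmp5* and *Bmp7* and 79.1% between *Bmp6* and *Bmp7*. Pairs from different branches were 59.2% to 63.8% identical.

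In the same annotation, *Bmp2* (ENSMUSG00000027358) lies at chr2:133552159-133562885 on the plus strand, with the bases above at chr2:133561668-133561715 in exon 3 of 3. *Bmp4* (ENSMUSG00000021835) lies at chr14:46383520-46390669 on the minus strand, with its bases at chr14:46383859-46383906 in exon 3 of 3. Both are short genes. *Bmp5* (ENSMUSG00000032179) lies at chr9:75775364-75900310 on the plus strand, *Bmp6* (ENSMUSG00000039004) at chr13:38345107-38500302 on the plus strand, and *Bmp7* (ENSMUSG00000008999) at chr2:172868012-172940321 on the minus strand, and the bases shown are in exon 7 of 7 of each, at chr9:75898535-75898582, chr13:38499021-38499068 and chr2:172870137-172870184. The genes span 10.7, 7.2, 124.9, 155.2 and 72.3 kb from *Bmp2* to *Bmp7*, and exons make up 33.1% and 31.4% of the span of *Bmp2* and *Bmp4* but 3.22%, 2.51% and 5.56% of that of *Bmp5*, *Bmp6* and *Bmp7*. Other genes overlap *Bmp4* (*Gm15217* and *Gm15222*), *Bmp5* (*Gm26903*) and *Bmp6* (*Txndc5* and *4930579J19Rik*) on the opposite strand, and *Gm47723*, which has no entry in the count table, overlaps *Bmp5* on the same strand, so reads from there could not be set apart.

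Barcodes with at least 2000 unique molecular identifiers (UMIs, counted molecules) and at most 10% mitochondrial UMIs were kept as cells, 10511 in the wild-type library with a median of 12802 UMIs, 12575 in *Mgp*-KO with 6445 and 8819 in *Pd*-KO with 8269. A cell was gated on a marker when it held at least 2 UMIs of it and of none of the other 6 markers. The 7 markers were *Pi16*, *Icam1*, *Gdf10*, *Adipoq*, *Pecam1*, *Rgs5* and *Epcam*. In the order wild-type, *Mgp*-KO, *Pd*-KO, which is used throughout, the gates held 52.0%, 62.5% and 68.5% of the cells, while 26.1%, 8.83% and 7.46% passed several gates and were set aside. With every cell thinned to 2000 UMIs before gating, 14.2%, 9.11% and 7.5% passed several. The libraries shared 40, 37 and 35 cell barcodes pairwise, and none was found in all 3.

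The labels of the gates were checked against 6 or 7 further markers each. In every library all markers of interstitial progenitors were highest in the *Pi16* gate (6 of 6), all mural markers in the *Rgs5* gate and all epithelial markers in the *Epcam* gate (7 of 7 each). At least 5 of 6 markers of the *Gdf10* gate and 6 of 7 of the *Adipoq* and *Pecam1* gates were highest there too. Of the preadipocyte markers of the *Icam1* gate only 3, 2 and 1 of 7 were, so that gate is called by its gene alone. The *Pi16* gate held 2216, 5078 and 4113 cells, or 21.1%, 40.4% and 46.6% of each library, and the *Rgs5* gate 569, 45 and 359. The *Pecam1* gate held 457, 206 and 572 cells, and the *Adipoq* gate no more than 67, 26 and 22.

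Levels are given as counts per 1e6 UMIs of the same cells (CPM), with 95% intervals in parentheses that cover counting error only, since there was 1 library per genotype and no test between genotypes was possible. Over all cells the targeted gene, *Mgp*, was at 451 CPM in wild-type, 1.75 in *Mgp*-KO and 18.1 in *Pd*-KO, lower in both knockouts as labelled. Of the 157 *Mgp* UMIs of *Mgp*-KO, 101 lay in 5 of its 686 *Gdf10*-gated cells (26.3 CPM, 21.5 to 32.0) and 16 in a single cell with *Ccn5* outside the gates. In *Pd*-KO it was at 1.35 CPM in *Pi16*-gated cells against 166 in wild-type, and at 1.53 against 1510 in *Gdf10*-gated cells. *Rgs5*-gated cells of *Pd*-KO still held 455 CPM (423 to 488) against 515 (493 to 537), and *Pecam1*-gated cells 43.1 (35.6 to 51.7) against 686 (658 to 715). The mural cells of *Pd*-KO thus kept *Mgp* RNA, while those of *Mgp*-KO had no UMI of it.

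*Bmp2*, a ligand also known for bone induction and vessel development, had its highest level in *Rgs5*-gated mural cells of all 3 genotypes. It was at 67.7 CPM (60.0 to 76.0) in wild-type, 82.3 (45.0 to 138) in *Mgp*-KO and 44.4 (34.8 to 55.8) in *Pd*-KO. *Pi16*-gated cells followed with 18.5 (17.0 to 20.1), 28.2 (26.5 to 30.0) and 13.3 CPM (12.2 to 14.4), and *Pecam1*-gated cells with 24.3 (19.3 to 30.3), 17.6 (10.4 to 27.8) and 10.7 (7.16 to 15.3). In each library the interval of the *Rgs5* gate lay above all others, whereas those of the *Pi16* and *Pecam1* gates overlapped. *Epcam*-gated cells were lowest with 2.23, 0.771 and 1.61 CPM, apart from the few *Adipoq*-gated cells, which had 0 UMIs in *Mgp*-KO (a count of 0 there allows up to 9.15 CPM).

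Within the mural gate, *Bmp2* was higher in the cells with *Myh11*, a myosin of smooth muscle, than in those low in it, at 74.6 (65.8 to 84.3) against 34.4 CPM (22.3 to 50.8) in wild-type and 70.7 (54.2 to 90.6) against 14.3 (7.15 to 25.6) in *Pd*-KO. Cells with *Myh11* that passed none of the 7 gates also held much of it, with 81.0 (70.6 to 92.5), 50.9 (36.5 to 69.0) and 52.4 CPM (32.0 to 80.9). Among *Pecam1*-gated endothelial cells, *Bmp2* was concentrated in those with *Prox1*, the regulator of lymphatic identity. They had 224 CPM (158 to 309) over 24 wild-type cells, against 12.4 (8.55 to 17.4) in the 369 cells with the capillary gene *Gpihbp1*. All 37 UMIs of these 24 cells lay in 5 of them, so that the value rests on few cells and its interval does not cover the spread between cells. No *Bmp2* UMI was found in wild-type endothelial cells with the venular genes *Selp* or *Ackr1*, in 30 and 35 cells, which allows up to 15.1 and 12.7 CPM.

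Despite that order of levels, most *Bmp2* UMIs of the knockouts came from *Pi16*-gated cells, the most numerous of the gated cells. Their share of all *Bmp2* UMIs was 22.9% in wild-type, 61.8% in *Mgp*-KO and 63.2% in *Pd*-KO, and that of *Rgs5*-gated cells 11.6%, 0.848% and 8.39%. Of all UMIs of the cells, *Pi16*-gated cells held 20.9%, 40.3% and 54.2%, and *Rgs5*-gated cells 2.89%, 0.19% and 2.15%. In wild-type, cells that passed several gates held 35.1% of *Bmp2*, the largest part, and 33.4% of all UMIs. With gates set after thinning, the *Pi16* shares of *Bmp2* were 25.8%, 61.2% and 57.7%, and the wild-type share still lay below both knockouts. The *Pi16* shares of all UMIs were then 22.5%, 38.3% and 52.9%.

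*Bmp4*, a ligand known for committing mesenchymal cells to the fat lineage, was shared between *Pi16*-, *Pecam1*- and *Gdf10*-gated cells. *Pi16*-gated cells had 27.8 CPM (26.0 to 29.8) in wild-type, 22.2 (20.7 to 23.8) in *Mgp*-KO and 23.3 (21.8 to 24.8) in *Pd*-KO. *Pecam1*-gated cells had 29.5 (23.9 to 36.0), 20.5 (12.7 to 31.4) and 10.7 (7.16 to 15.3). *Gdf10*-gated cells had 19.0 (16.4 to 22.0), 18.0 (14.0 to 22.8) and 7.09 CPM (4.99 to 9.77). The *Pi16* and *Pecam1* gates could not be ranked in wild-type or *Mgp*-KO, where their intervals overlapped, but were apart in *Pd*-KO, in which the endothelial and *Gdf10* levels were the lowest of the 3 genotypes. The endothelial interval of *Pd*-KO was below that of wild-type and overlapped that of *Mgp*-KO.

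Endothelial *Bmp4* was higher outside the capillary cells. In wild-type it was at 181 CPM (127 to 251) in cells with *Selp*, 123 (82.4 to 177) in those with *Ackr1*, 206 (143 to 288) in those with *Prox1* and 68.2 (39.0 to 111) in those with the arterial gene *Gja5*, but at 10.2 (6.69 to 14.8) in those with *Gpihbp1*. In *Pd*-KO the cells with *Selp*, *Ackr1* and *Prox1* had 66.9 (36.6 to 112), 75.8 (39.2 to 132) and 108 (34.9 to 251), and those with *Gpihbp1* 3.66 (1.58 to 7.21). These subsets are small, with 39, 32 and 9 cells in *Pd*-KO, and a cell can be in more than 1 of them. In wild-type the *Bmp4* UMIs lay in 14 of 30 cells with *Selp*, 10 of 35 with *Ackr1*, 8 of 24 with *Prox1* and 3 of 34 with *Gja5*. No *Bmp4* UMI was seen in the 19 *Gja5* cells of *Pd*-KO, which allows up to 36.0 CPM. The endothelial cells of *Mgp*-KO held 21 *Bmp4* UMIs in 206 cells, of which 1 fell to cells with *Gpihbp1*. *Pi16*-gated cells carried 41.9%, 65.8% and 80.1% of all *Bmp4* UMIs in wild-type, *Mgp*-KO and *Pd*-KO, from 20.9%, 40.3% and 54.2% of all UMIs of the cells.

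*Bmp5* was the ligand with the fewest UMIs, 166, 68 and 258 in wild-type, *Mgp*-KO and *Pd*-KO, and was found mainly in mural cells. *Rgs5*-gated cells had 18.1 CPM (14.3 to 22.7) in wild-type, 29.4 (9.54 to 68.6) in *Mgp*-KO from 5 UMIs, and 82.1 (68.8 to 97.1) in *Pd*-KO. Every other gate was at or below 0.461 CPM in wild-type, 0.578 in *Mgp*-KO and 7.61 in *Pd*-KO, the latter from 2 UMIs in 22 *Adipoq*-gated cells. The mural gate was apart from every other gate in wild-type and *Pd*-KO, and in *Mgp*-KO from all but the 26 *Adipoq*-gated cells, where a count of 0 has an upper bound of 11.3 CPM. Within it, cells with *Myh11* had 20.7, 40.8 and 107 CPM, and those low in *Myh11* had 5.51, 13.9 and 53.4, apart in wild-type and *Pd*-KO. The mural gate gave 45.8% of all *Bmp5* UMIs in wild-type and 52.3% in *Pd*-KO, but 7.35% in *Mgp*-KO, where it held only 45 cells. Its part of all UMIs was 2.89%, 0.19% and 2.15% in wild-type, *Mgp*-KO and *Pd*-KO.

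*Bmp6*, a ligand made by endothelial cells that is known to set hepcidin and iron balance in the liver, was found in *Pecam1*- and *Pi16*-gated cells, and in cells with *Myh11* outside the gates. *Pecam1*-gated cells had 13.1 CPM (9.46 to 17.6) in wild-type, 18.6 (11.2 to 29.0) in *Mgp*-KO and 70.0 (60.4 to 80.7) in *Pd*-KO. *Pi16*-gated cells had 10.5 (9.38 to 11.7), 24.2 (22.6 to 25.8) and 53.9 CPM (51.7 to 56.2). The intervals of the 3 genotypes were apart in *Pi16*-gated cells, and in *Pecam1*-gated cells only *Pd*-KO was apart. The *Pecam1* and *Pi16* gates overlapped in wild-type and *Mgp*-KO and were apart in *Pd*-KO. *Rgs5*-gated cells had 6.91, 17.6 and 26.7 CPM, the value of *Mgp*-KO from 3 UMIs, while no *Icam1*-, *Gdf10*- or *Epcam*-gated cells exceeded 2.42. Cells with *Myh11* that passed no gate had 18.7 CPM (13.9 to 24.6), 29.8 (19.1 to 44.3) and 52.4 (32.0 to 80.9), above the *Pi16* gate in wild-type and overlapping it in both knockouts.

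In the endothelial cells with *Gpihbp1*, *Bmp6* was apart only in *Pd*-KO, while the intervals of wild-type and *Mgp*-KO overlapped. Cells with *Gpihbp1* had 11.3 CPM (7.61 to 16.1) in wild-type, 25.2 (14.4 to 40.9) in *Mgp*-KO and 66.3 (56.0 to 78.1) in *Pd*-KO. In wild-type those with *Selp* had 65.5 (34.9 to 112), those with *Gja5* 38.4 (17.5 to 72.8), those with *Prox1* 24.2 (6.60 to 62.0) and those with *Ackr1* 8.48 (1.03 to 30.6). Of these only the cells with *Selp* and *Gja5* lay above those with *Gpihbp1*. The value with *Selp* came from 13 UMIs in 5 of 30 cells, and that with *Ackr1* from 2 UMIs in 1 of 35. The intervals do not cover the spread between cells. Mural *Bmp6* came with *Myh11*: in *Pd*-KO 50.1 CPM (36.4 to 67.3) where *Myh11* was present and no UMI in the 160 cells low in it, which allows up to 3.86 CPM. *Pi16*-gated cells carried 51.1%, 80.5% and 77.9% of all *Bmp6* UMIs, and *Pecam1*-gated cells 6.89%, 1.75% and 6.64%. Their parts of all UMIs were 20.9%, 40.3% and 54.2%, and 2.26%, 1.14% and 3.55%.

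*Bmp7*, a ligand known for kidney and eye development and for brown fat, was found above all in *Pi16*-gated cells. They had 40.4 CPM (38.2 to 42.7) in wild-type, 62.7 (60.2 to 65.3) in *Mgp*-KO and 78.9 (76.2 to 81.6) in *Pd*-KO, while no other gate exceeded 5.4 CPM in any library. The genotypes were apart from each other. This gate carried 65.8%, 82.9% and 88.7% of all *Bmp7* UMIs from 20.9%, 40.3% and 54.2% of all UMIs of the cells. Outside the gates, cells with *Krt14*, a keratin of basal epithelium, had 67.8 CPM (36.1 to 116), 46.3 (27.5 to 73.2) and 125 (54.1 to 247) in 22, 74 and 11 cells. Cells with *Crabp1* had 17.8, 40.3 and 14.7 CPM, and the *Krt14* cells of the *Epcam* gate 14.8, 43.8 and 33.0.

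**Figure D1:**
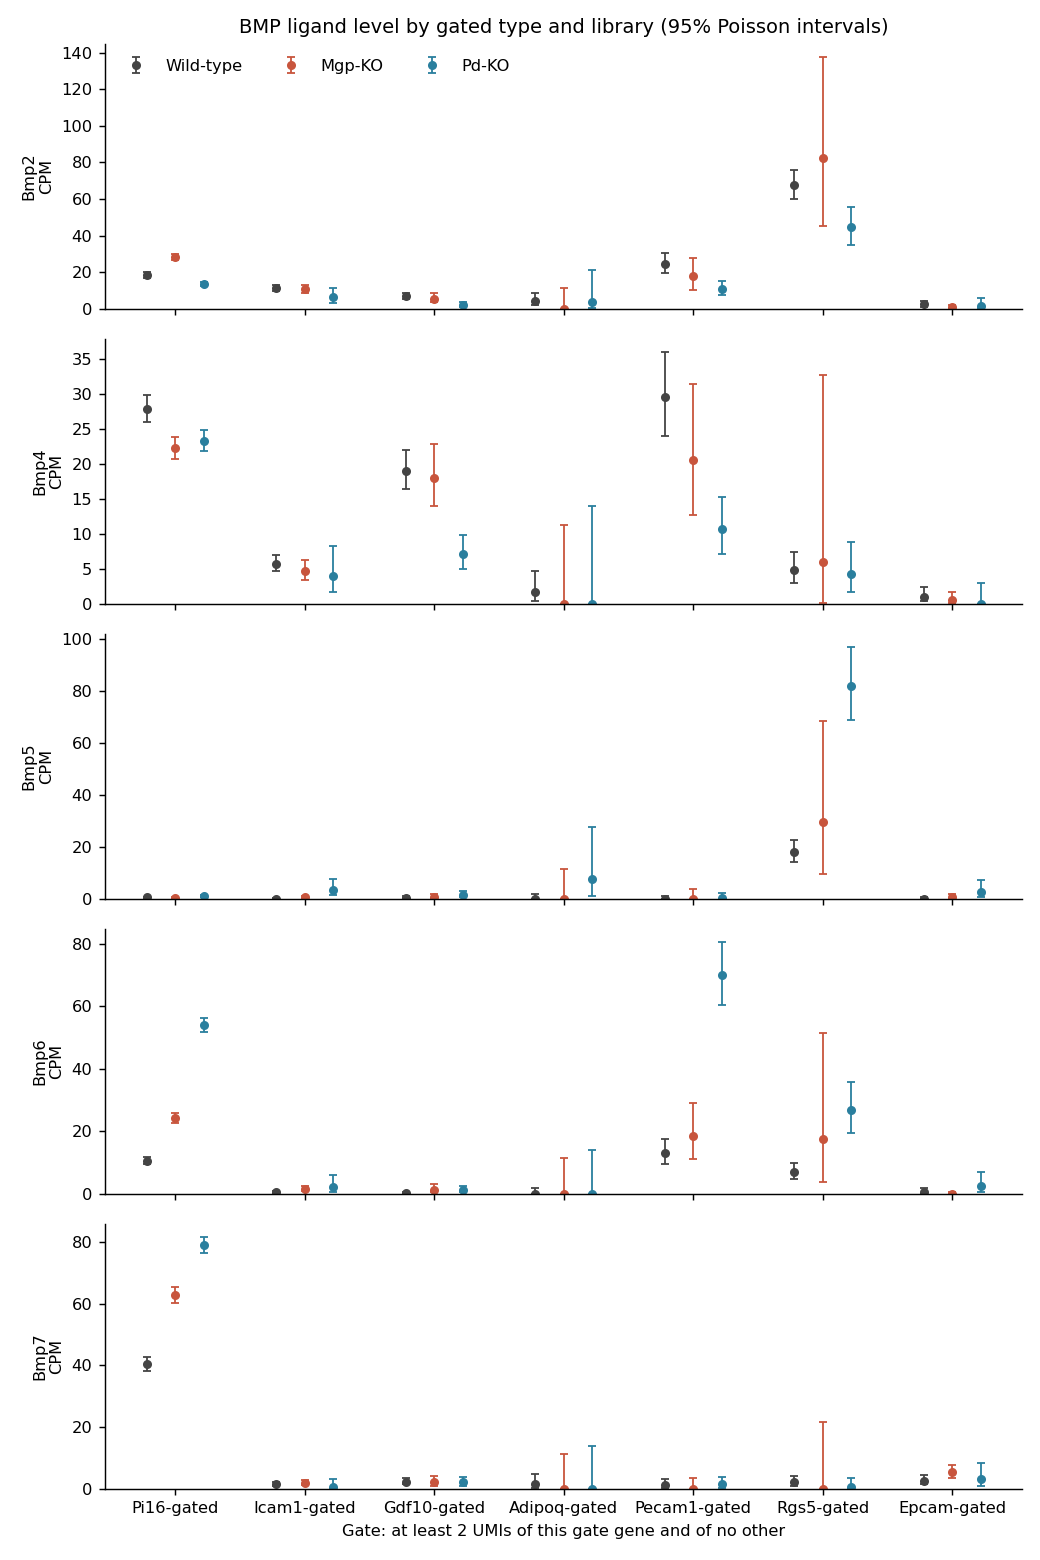
Level of each ligand (CPM) in the 7 gates of the 3 libraries, with 95% counting intervals as bars. *Bmp5* stood out in the *Rgs5* gate and *Bmp7* in the *Pi16* gate, whereas *Bmp6* was high in both the *Pi16* and the *Pecam1* gate, at 53.9 and 70.0 CPM in *Pd*-KO.

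**Figure D2:**
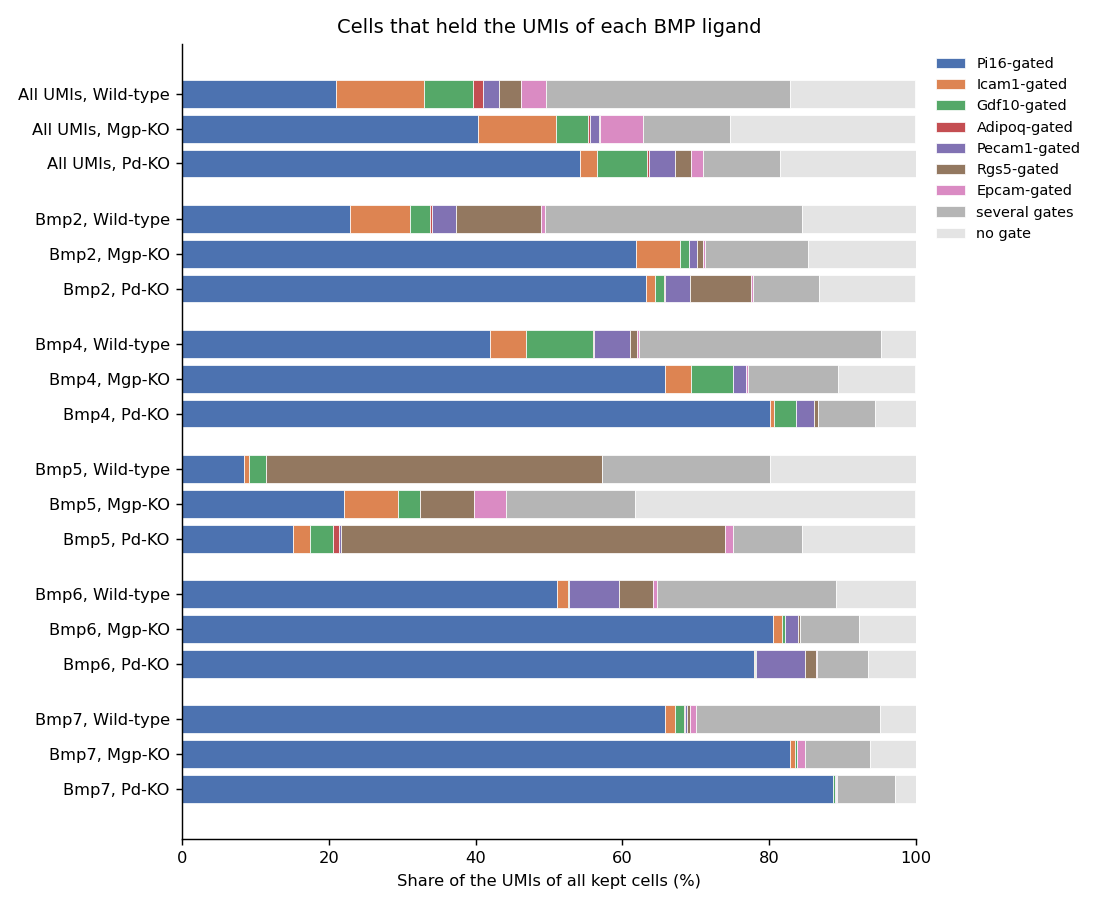
Share of the UMIs of each ligand (percent) by gate, with cells of several gates and of none shown as well, for each library. The *Pi16* gate gave 65.8%, 82.9% and 88.7% of *Bmp7* and 22.9%, 61.8% and 63.2% of *Bmp2* in wild-type, *Mgp*-KO and *Pd*-KO, from 20.9%, 40.3% and 54.2% of all UMIs.

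*Pi16*-gated cells were not alike in their ligands. Those with *Krtdap* (at least 2 UMIs), a marker of the interstitial progenitors used in the check of the gates, numbered 385, 398 and 778. *Bmp7* was at 75.2, 96.9 and 112 CPM in them and at 32.3, 59.6 and 70.8 in the rest of the gate, in wild-type, *Mgp*-KO and *Pd*-KO. *Bmp6* was at 20.8, 56.0 and 95.3 against 8.08, 21.2 and 43.8, and *Bmp4* at 39.8, 33.7 and 32.6 against 25, 21.1 and 21. For *Bmp2* the values were 22.6, 51.7 and 21 against 17.5, 26.1 and 11.4. *Bmp4*, *Bmp6* and *Bmp7* were thus higher with *Krtdap* in each library with intervals apart, and so was *Bmp2* in both knockouts, while its wild-type intervals overlapped (18.9 to 26.8 and 15.9 to 19.3).

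Free RNA was read from barcodes of 10 to 100 UMIs, since it can place UMIs in cells that do not make a gene. It held *Bmp7* at 10.4, 31.6 and 26.6 CPM in wild-type, *Mgp*-KO and *Pd*-KO, and only the *Pi16* gate lay above that in each library. *Bmp2* was at 13.9, 22.8 and 8.67 CPM, with only the *Rgs5* gate above, and *Bmp5* at 7.83, 1.27 and 6.88, with the *Rgs5* gate above in both knockouts. *Bmp4* was at 6.96, 10.1 and 11.1 CPM, with the *Pi16* gate above in each library and the *Gdf10* and *Pecam1* gates in wild-type. *Bmp6* was at 4.35 and 3.8 CPM in wild-type and *Mgp*-KO but at 52.3 (44.9 to 60.7) in *Pd*-KO. For *Bmp6* the *Pi16* and *Pecam1* gates of *Mgp*-KO lay above the free RNA, and no gate of wild-type or *Pd*-KO did. In *Pd*-KO 5 of 7 gates lay below it, all but the *Pi16* and *Pecam1* gates, whose intervals overlapped that of the free RNA. The *Icam1* and *Gdf10* gates of *Pd*-KO held *Bmp6* at 2.28 and 1.15 CPM. These CPM are shares of the free RNA and not amounts in a cell, so a gate need not lie above them to be a source. How much of a cell's UMIs was free RNA was not tested.

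Shares of cells with a UMI give the same sources. With each cell thinned to 2000 UMIs, *Bmp7* was found in 7.72%, 12.3% and 16.0% of *Pi16*-gated cells of wild-type, *Mgp*-KO and *Pd*-KO (35.3%, 32.0% and 48.4% before thinning), against 0.219%, 0% and 0.175% of *Pecam1*-gated cells (0.875%, 0% and 0.524%). Median depths before thinning were 13312.5, 6542.5 and 9744 UMIs in the *Pi16* gate and 6024, 3871.5 and 4006.5 in the *Pecam1* gate. The order of wild-type and *Mgp*-KO for *Bmp7* before thinning was the reverse of that after it, and of that of the CPM. *Bmp6* was found in 2.53%, 4.19% and 9.63% of thinned *Pi16*-gated cells and 3.06%, 4.37% and 10.8% of *Pecam1*-gated cells (12.1%, 11.9% and 28.6%, and 5.91%, 6.8% and 15.6%, before thinning), against 0% of *Epcam*-gated cells. *Bmp2* reached 12.1%, 15.6% and 9.19% of *Rgs5*-gated cells (34.6%, 22.2% and 15.0%), against 0.412%, 0% and 0% of *Epcam*-gated cells. *Bmp5* reached 3.34%, 0% and 10.9% of *Rgs5*-gated cells (11.6%, 8.89% and 23.4%), and a 0 in 45 cells allows a share of up to 6.67%. *Bmp4* differed little in *Pi16*-gated cells, at 4.47%, 4.45% and 4.28% (24.1%, 12.7% and 18.1%). Over all thinned cells, the shares were 3.38%, 3.18% and 2.25% for *Bmp2*, 2.72%, 2.77% and 2.68% for *Bmp4*, 0.362%, 0.159% and 0.805% for *Bmp5*, 1.09%, 2.19% and 6.42% for *Bmp6*, and 2.4%, 5.84% and 8.4% for *Bmp7*. Unthinned they were 13.0%, 8.02% and 7.36% for *Bmp2*, 12.2%, 7.58% and 10.4% for *Bmp4*, 1.4%, 0.461% and 2.12% for *Bmp5*, 5.02%, 6.15% and 17.3% for *Bmp6*, and 11.6%, 15.8% and 25.8% for *Bmp7*.

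Most cells with a ligand held 1 UMI of it, 58.2% to 88.4% of them across the ligands and libraries before thinning, and the largest number in 1 cell was 24, for *Bmp2* in wild-type. Few thinned cells could therefore show a pair of ligands. In *Pi16*-gated cells of *Pd*-KO, *Bmp6* and *Bmp7* were found together in 89 cells, where the product of their shares gives 63.4, and *Bmp4* and *Bmp6* in 28, where it gives 16.9. In *Mgp*-KO, *Bmp2* and *Bmp6* were together in 20 cells against 9.86, and *Bmp4* and *Bmp7* in 18 against 27.9. The pairs did not repeat alike between the knockouts. In *Pd*-KO, *Bmp2* and *Bmp6* were together in 11 cells against 10.4, and *Bmp4* and *Bmp7* in 37 against 28.2. In *Mgp*-KO, *Bmp6* and *Bmp7* were together in 30 against 26.3, and *Bmp4* and *Bmp6* in 10 against 9.48. In wild-type *Bmp6* and *Bmp7* were together in 4 cells against 4.32. These are counts of single libraries, given without a test.

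Over all kept cells, *Bmp6* and *Bmp7* were higher in both knockouts than in wild-type, *Bmp5* was higher in *Pd*-KO only, and *Bmp2* and *Bmp4* moved by less than 2-fold. *Bmp6* was at 4.3 CPM (3.97 to 4.65) in wild-type, 12.1 (11.4 to 12.9) in *Mgp*-KO and 37.5 (36.1 to 38.9) in *Pd*-KO. *Bmp7* was at 12.8 (12.3 to 13.4), 30.5 (29.4 to 31.7) and 48.2 (46.6 to 49.8). For both, the genotypes were apart, with *Pd*-KO highest and wild-type lowest. *Bmp5* was at 1.14 (0.976 to 1.33), 0.759 (0.59 to 0.962) and 3.38 (2.98 to 3.82), so that *Mgp*-KO was the lowest. *Bmp2* was at 16.9 (16.2 to 17.6), 18.4 (17.5 to 19.3) and 11.4 (10.6 to 12.2), and *Bmp4* at 13.9 (13.3 to 14.5), 13.6 (12.8 to 14.4) and 15.8 (14.9 to 16.7), with wild-type and *Mgp*-KO overlapping for both.

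As log2 ratios of these levels in *Mgp*-KO over wild-type, *Bmp6* was at 1.5 (1.35 to 1.64), *Bmp7* at 1.25 (1.16 to 1.33), *Bmp5* at −0.59 (−1.02 to −0.17), *Bmp2* at 0.12 (0.03 to 0.21) and *Bmp4* at −0.03 (−0.14 to 0.07). In *Pd*-KO over wild-type, *Bmp6* was at 3.13 (3 to 3.25), *Bmp7* at 1.91 (1.83 to 1.99), *Bmp5* at 1.56 (1.28 to 1.85), *Bmp4* at 0.18 (0.08 to 0.29) and *Bmp2* at −0.57 (−0.68 to −0.46). Both comparisons use the same wild-type library. Between the knockouts, *Mgp*-KO over *Pd*-KO, the ratio was 0.69 (0.57 to 0.81) for *Bmp2*, −0.21 (−0.33 to −0.10) for *Bmp4*, −2.15 (−2.56 to −1.76) for *Bmp5*, −1.63 (−1.73 to −1.53) for *Bmp6* and −0.66 (−0.73 to −0.59) for *Bmp7*. Only *Bmp2* was higher in *Mgp*-KO than in *Pd*-KO. With each cell weighted equally, *Bmp2* turned to −0.23 in *Mgp*-KO over wild-type and *Bmp4* to −0.09 in *Pd*-KO over wild-type and 0.06 between the knockouts. With the gated types weighted as in wild-type, *Bmp5* turned to 0.51 in *Mgp*-KO over wild-type, and *Bmp4* to −0.35 in *Pd*-KO over wild-type and 0.22 between the knockouts, while *Bmp6* was at 1.16 and 2.52 and *Bmp7* at 0.81 and 1.24 in the knockouts over wild-type.

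The number of ligands past 2-fold is read against all genes that held 100 UMIs or more in both libraries together. In *Mgp*-KO over wild-type, 2 of the 5 ligands were past 2-fold, both upward, and 22.2% of 15319 genes were past 2-fold in either direction. In *Pd*-KO over wild-type 3 of 5 were, all upward, against 27.6% of 15216 genes, and in *Mgp*-KO over *Pd*-KO 2 of 5, both downward, against 9.96% of 15023 genes. The ligands past 2-fold against wild-type were of long span, *Bmp6* and *Bmp7* in both knockouts and *Bmp5* in *Pd*-KO. Of the 200 genes nearest to *Bmp6* in span, 49.0% were past 2-fold upward in *Mgp*-KO over wild-type and 58.5% in *Pd*-KO over wild-type. For *Bmp7* these shares were 22.0% and 31.0%. For *Bmp5* in *Pd*-KO, 100 of the 200 genes were past 2-fold upward. An all-cell ratio mixes the share of a cell type with the level in it, and *Pi16*-gated cells, the main carriers of *Bmp6* and *Bmp7*, made up 20.9% of the UMIs in wild-type, 40.3% in *Mgp*-KO and 54.2% in *Pd*-KO.

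Genes of long span stood apart between the wild-type library and both knockouts, and *Bmp5*, *Bmp6* and *Bmp7* are long genes. With *Mgp*-KO set over wild-type, the median of the log2 ratio went from −0.22 in genes under 5 kb to 0.89 in those of 100 to 200 kb, and with *Pd*-KO over wild-type from −0.35 to 1.13. Between the knockouts it went from 0.11 to −0.32. The file headers name Cell Ranger 4 for wild-type and 7.1.0 for both knockouts. The later release counts reads of introns by default and the earlier does not, and the setting used is not given in the sources used here. Genotype and software version cannot be told apart in a comparison with wild-type.

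Each ligand was therefore set beside the 200 genes nearest to it in span. For *Bmp6* these had a median log2 ratio of 0.98 (quartiles 0.47 and 1.52) in *Mgp*-KO over wild-type and 1.20 (0.63 and 2.01) in *Pd*-KO over wild-type, so that its own 1.5 lay within the quartiles and its 3.13 above them. For *Bmp7* they had 0.48 (0.17 and 0.95) and 0.73 (0.39 and 1.10), and its 1.25 and 1.91 lay above the upper quartile in both. For *Bmp5* they had 0.85 (0.36 and 1.44) and 0.99 (0.48 and 1.74), and its −0.59 was below them in *Mgp*-KO and its 1.56 within them in *Pd*-KO. The *Rgs5* gate, where its level was highest, held 2.89% of all UMIs in wild-type and 0.19% in *Mgp*-KO. With the gated types weighted as in wild-type, its ratio in *Mgp*-KO was 0.51. With the median taken off, *Bmp6* was left at 0.52 and 1.93, *Bmp7* at 0.76 and 1.17 and *Bmp5* at −1.44 and 0.57. *Bmp2* and *Bmp4* have short spans, and the medians beside them were −0.11 and −0.15 in *Mgp*-KO and −0.17 and −0.19 in *Pd*-KO. For *Mgp*-KO over *Pd*-KO, whose headers name the same release, the medians were between −0.31 and 0.08 for the 5 ligands, while *Bmp5* was at −2.15 and *Bmp6* at −1.63.

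**Figure D3:**
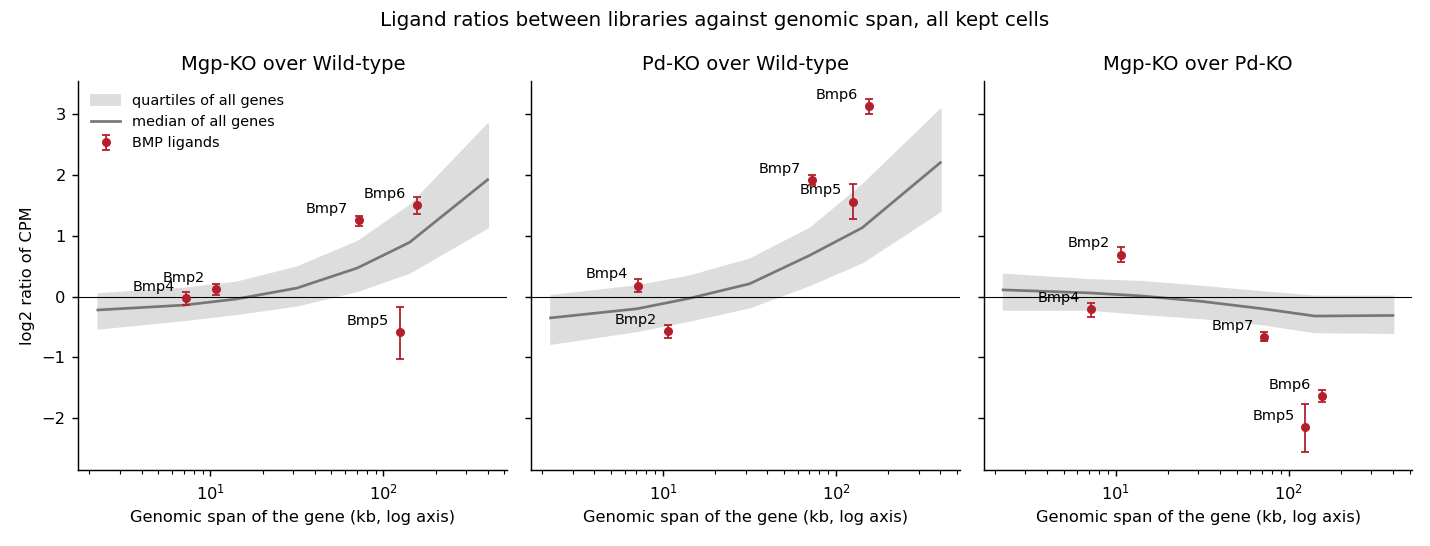
Log2 ratio of all kept cells against gene span (kb, log axis) for each pair of genotypes, with the median and quartiles of all genes by class of span as a line and a band, and the 5 ligands marked with their 95% counting intervals. The median of genes of 100 to 200 kb was 0.89 and 1.13 in the comparisons with wild-type and −0.32 between the knockouts.

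Within *Pi16*-gated cells the share of the type no longer enters, but the makeup of the gate still does. Cells with *Krtdap* were 385 of 2216, 398 of 5078 and 778 of 4113 there, and their part in these ratios was not tested. In this gate the ratios of *Bmp6* and *Bmp7* with wild-type were smaller than over all cells and *Bmp6* was past 2-fold. In *Mgp*-KO over wild-type it was at 1.20 (1.02 to 1.39), beside a median of 0.93 for genes of like span, *Bmp7* at 0.63 (0.53 to 0.74) beside 0.41, *Bmp2* at 0.61 (0.46 to 0.76) beside −0.11 and *Bmp4* at −0.33 (−0.47 to −0.19) beside −0.12. In *Pd*-KO over wild-type, *Bmp6* was at 2.36 (2.19 to 2.53) beside 1.22, *Bmp7* at 0.97 (0.87 to 1.06) beside 0.63, *Bmp2* at −0.48 (−0.65 to −0.30) beside −0.14 and *Bmp4* at −0.26 (−0.39 to −0.12) beside −0.19. In each comparison 1 of the 4 ligands with enough UMIs was past 2-fold, against 16.8% and 22.7% of genes. That ligand was *Bmp6*, and of the 200 genes nearest to it in span 46.5% and 59.0% were past 2-fold upward. Only *Bmp5* had too few UMIs, 14, 15 and 39 in this gate. The 2-fold call of *Bmp6* in *Mgp*-KO was lost in male cells (0.93), with each cell weighted equally (0.95) and with the median of genes of like span taken off (0.27), and that in *Pd*-KO held under each alternative (1.14 to 3.21). *Bmp7* in *Pd*-KO crossed 2-fold under 4 alternatives, at 1.02 to 1.35. For *Bmp2* and *Bmp4* in *Mgp*-KO the size was larger than over all cells, where they were at 0.12 and −0.03, and *Bmp4* in *Pd*-KO was at 0.18 there, of opposite sign. In female cells of the gate *Bmp4* was at 0.09 in *Mgp*-KO and 0.06 in *Pd*-KO, and *Bmp2* at 1.13 and 0.49, so that the sign of *Bmp4* in both knockouts and of *Bmp2* in *Pd*-KO was turned and *Bmp2* in *Mgp*-KO passed 2-fold.

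Between the knockouts, *Pi16*-gated cells differed in *Bmp2* and *Bmp6* in opposite directions. *Bmp2* was 2.12-fold higher in *Mgp*-KO than in *Pd*-KO, a log2 ratio of 1.09 (0.94 to 1.24) beside a median of 0.07 for genes of like span, and *Bmp6* was at −1.16 (−1.27 to −1.04) beside −0.31. *Bmp7* was at −0.33 (−0.41 to −0.25) and *Bmp4* at −0.07 (−0.21 to 0.07), whose interval holds 0. Thus 2 of 4 ligands were past 2-fold, 1 in each direction, where 4.69% of 12324 genes were. The call of *Bmp2* was lost in female cells (0.64), and that of *Bmp6* with the median of genes of like span taken off (−0.85).

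*Pecam1*-gated cells of *Pd*-KO had less *Bmp2* and *Bmp4* and more *Bmp6* than those of wild-type. The log2 ratios were −1.19 (−1.85 to −0.56) for *Bmp2* beside a median of −0.15 for genes of like span, −1.46 (−2.12 to −0.85) for *Bmp4* beside −0.17, and 2.42 (1.94 to 2.93) for *Bmp6* beside 0.96. All 3 ligands with enough UMIs there were past 2-fold, against 18.0% of genes. Of the 200 genes nearest to *Bmp6* in span, 49.0% were past 2-fold upward there. The call of *Bmp2* was lost at a minimum of 5000 UMIs per barcode (−0.74), with gates set on thinned cells (−0.80) and in female cells (−0.89). Of the 80 wild-type *Bmp2* UMIs of this gate, a large part lay in a few cells with *Prox1*, as given above. The interval of its ratio does not cover that spread between cells. In *Mgp*-KO over wild-type only *Bmp4* had enough UMIs, at −0.52 (−1.28 to 0.17), not past 2-fold, against 10.1% of genes. That ratio was not stable, at −2.21 with 5000 UMIs per barcode, −3.13 in female cells, −1.09 in male cells and 0.25 with gates at 1 UMI. In *Mgp*-KO over *Pd*-KO only *Bmp6* had enough UMIs, past 2-fold at −1.91 (−2.68 to −1.23), against 12.5%. The makeup of the gate was not the same throughout: cells with *Selp* were 30, 13 and 39 and those with *Prox1* 24, 3 and 9 in wild-type, *Mgp*-KO and *Pd*-KO, and their part in these ratios was not tested. Within cells with *Gpihbp1*, *Bmp6* was again higher in *Pd*-KO than in wild-type, at 66.3 against 11.3 CPM.

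In *Rgs5*-gated cells, which kept *Mgp* in *Pd*-KO, *Bmp5* was 4.53-fold higher in *Pd*-KO than in wild-type, a log2 ratio of 2.18 (1.76 to 2.61) beside a median of 0.94 over the 200 genes of like span in the same gate. *Bmp2* was at −0.61 (−1 to −0.23). Of these 2 ligands 1 was past 2-fold, against 18.8% of genes. *Bmp6*, with 29 and 44 UMIs, was at 1.95 (1.24 to 2.68) beside a median of 1.15 for genes of like span. It had fewer than the 100 UMIs needed for a 2-fold call. The mural cells of wild-type and *Pd*-KO differed in makeup as well, with *Myh11* in 471 of 569 cells and 199 of 359, and *Bmp5* was higher in *Pd*-KO both in cells with *Myh11* (107 against 20.7 CPM) and in those low in it (53.4 against 5.51). In *Gdf10*-gated cells, *Bmp4* was at −1.42 (−1.97 to −0.91) in *Pd*-KO over wild-type, beside a median of −0.13 for genes of like span. It was the only ligand with enough UMIs there and was past 2-fold, against 19.1% of 9332 genes. The call was lost when cells of several gates were given to 1 gate in a set order (−0.79).

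**Figure D4:**
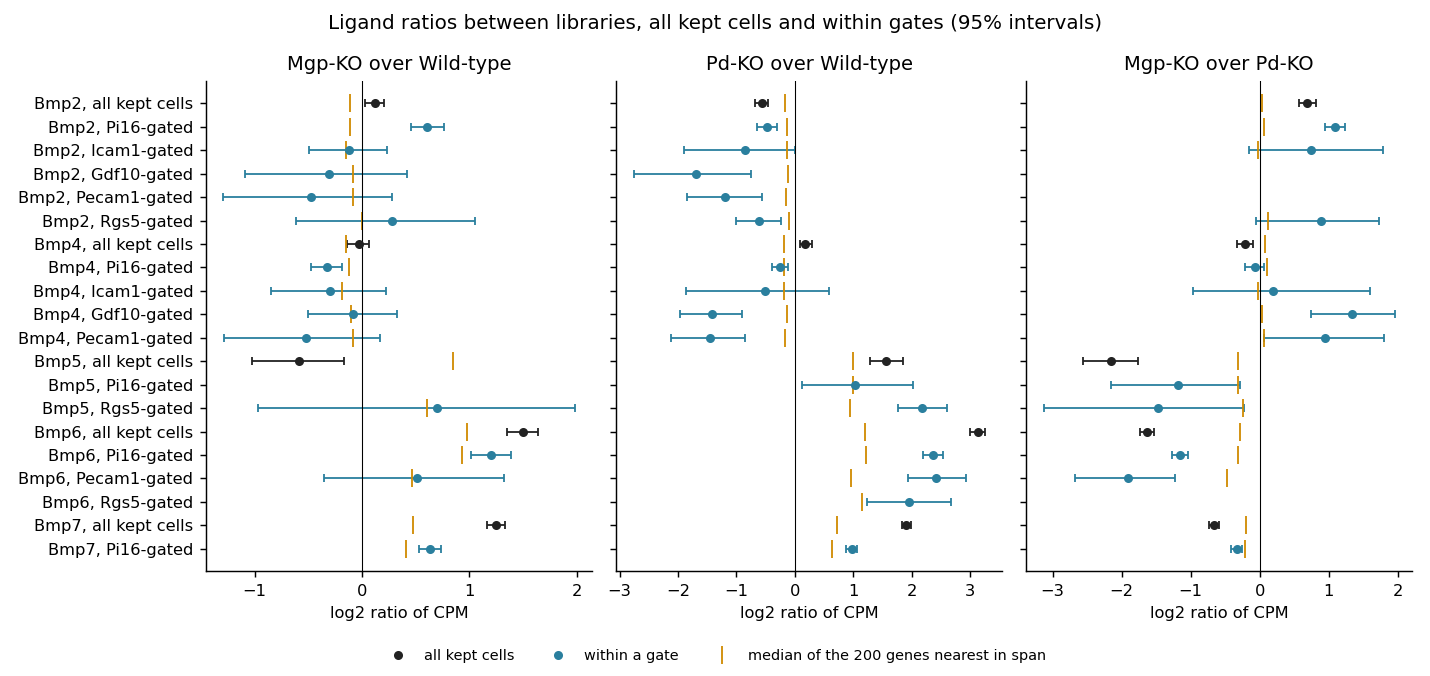
Log2 ratios of CPM between genotypes over all kept cells and within gates, where both libraries together held 50 UMIs or more, with 95% counting intervals as bars and the median of the 200 genes nearest in span as a tick. *Bmp6* was above 0 against wild-type in the *Pi16* gate of both knockouts (1.20 and 2.36), and *Bmp2* was below 0 in *Pd*-KO (−0.48) and above 0 in *Mgp*-KO (0.61).

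The sexes were pooled in each library and could be told apart by *Xist*, the RNA of the inactive X chromosome, and by Y-linked genes. Cells with UMIs of only one or the other were called, which gave 3688 female and 3687 male cells in wild-type, 7620 and 1849 in *Mgp*-KO and 2868 and 3481 in *Pd*-KO, so that the sexes were not equally present. *Bmp6* in *Pi16*-gated cells was at 8.61 CPM (6.80 to 10.7) in female and 11.5 (9.76 to 13.5) in male cells of wild-type, 28.6 (26.2 to 31.1) and 21.9 (18.8 to 25.5) in *Mgp*-KO, and 79.5 (74.6 to 84.6) and 43.9 (41.0 to 47.0) in *Pd*-KO. *Bmp2* was at 14.5 and 20.5 CPM in wild-type, 31.7 and 29.3 in *Mgp*-KO and 20.3 and 10.6 in *Pd*-KO. *Bmp7* was at 32.6 and 43.9, 57.5 and 63.4, and 83.1 and 74.0, and *Bmp4* at 21.4 and 33.0, 22.7 and 21.2, and 22.3 and 23.7. In these cells *Bmp2*, *Bmp4*, *Bmp6* and *Bmp7* were thus higher in male cells of wild-type, and *Bmp2*, *Bmp6* and *Bmp7* in female cells of *Pd*-KO. *Bmp6* was higher in *Pd*-KO than in wild-type in either sex. The direction of *Bmp2* in *Pi16*-gated cells of *Pd*-KO over wild-type was not the same in the cells of each sex, with a log2 ratio of 0.49 in female and −0.95 in male cells. In *Mgp*-KO over wild-type it was 1.13 in female and 0.51 in male cells, and *Bmp4* was at 0.09 and −0.64. Cells could not be assigned to mice, so that sex and the mice pooled cannot be told apart.

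**Figure D5:**
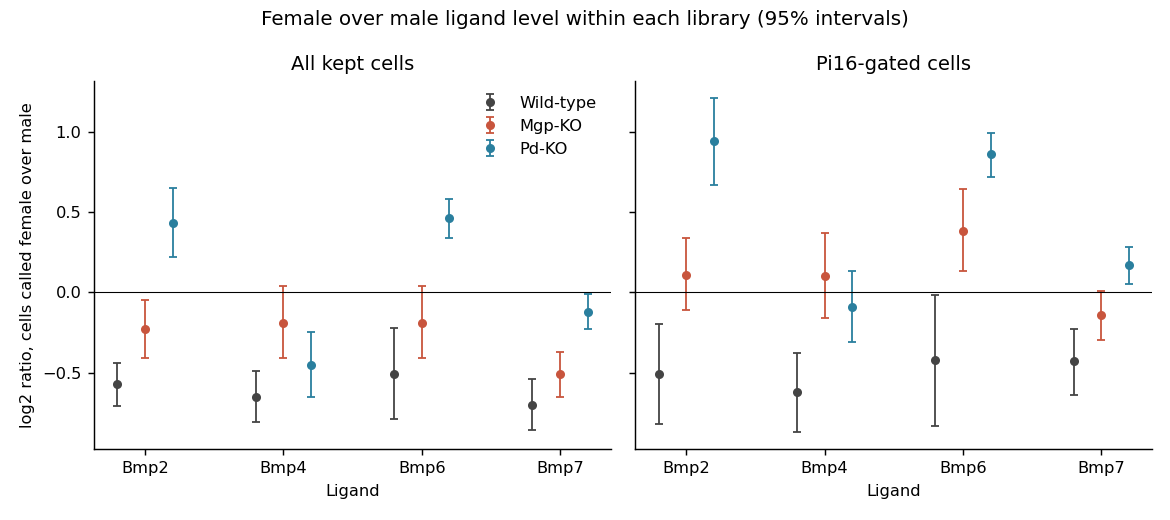
Log2 ratio of female over male cells of the same library for each ligand but *Bmp5*, over all kept cells and in *Pi16*-gated cells, with 95% counting intervals. In the *Pi16* gate *Bmp6* went from −0.42 in wild-type to 0.38 in *Mgp*-KO and 0.86 in *Pd*-KO.

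The genes most like each ligand were sought among 14853 genes, over the 7 gates of the 3 libraries. These 21 points share libraries, depth and, within a library, the same cell types, and Pearson's r of log2(CPM + 1) is given as a description. For *Bmp2* they were *Procr* (r = 0.95), the endothelial protein C receptor, *Timp3* (0.86), and *Il34*, *Mustn1* and *Ckb* (0.85 each). For *Bmp4* they were *S100a13* (0.90), *Sec62* and *Svbp* (0.89), and *Slc16a9* and *Tubb2a* (0.88). For *Bmp5* they were *Slc4a11* (0.95), *Klhdc8b*, *Carmn* and *Ephx3* (0.94) and *Dag1* (0.93), of which *Carmn* is a smooth muscle RNA. For *Bmp6* they were *Rap1a*, *Efnb2* and *Mylip* (0.88), and *Lims2* and *Lrrc8c* (0.87), *Efnb2* being a ligand of arterial endothelium. For *Bmp7* they were *Tmem229a* (0.94), *Dmkn* and *Duox1* (0.93), and *Wnt10b* and *Dhrs9* (0.92), *Wnt10b* being a Wnt ligand known to hold back fat formation. Among the ligands themselves, *Bmp2* and *Bmp6* were the most alike (0.70), and *Bmp5* and *Bmp7* the least (−0.26).

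The rest of the pathway was counted over all kept cells from a list of 46 genes, all in the table. Of the other ligands, 2 of 4 with enough UMIs were past 2-fold upward in *Mgp*-KO over wild-type and 3 of 5 in *Pd*-KO, with none downward, against 22.2% and 27.6% of all genes past 2-fold in either direction. *Bmp8a* was at 15.3 CPM in *Mgp*-KO and 12.5 in *Pd*-KO against 2.64 in wild-type (log2 ratios of 2.54 and 2.24), and *Gdf6* at 0.837 and 1.72 against 0.213 (1.97 and 3.01). Genes of their span had medians of 0.01 to 0.20. Over all kept cells these 2 ligands were past 2-fold upward in both knockouts. In *Pi16*-gated cells *Bmp8a* was at 1.88 in *Mgp*-KO and 1.33 in *Pd*-KO over wild-type. There *Gdf6* was at 2.97 in *Pd*-KO and had too few UMIs for a 2-fold call in *Mgp*-KO.

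Of the 7 receptors, 2 were past 2-fold upward in *Mgp*-KO and 4 in *Pd*-KO, with none downward, and the share of *Mgp*-KO is near the 22.2% of all genes (27.6% in *Pd*-KO). The type I receptors *Bmpr1b* (1.93 and 3.33, beside medians of 1.89 and 2.16 for genes of like span) and *Acvr1* (1.29 and 1.69, beside 1.30 and 1.53) were among them in both. Of the 3 co-receptors none was past 2-fold against wild-type. Among 6 proteases that process ligands or their binders, 2 and 3 were, all upward, against the same 22.2% and 27.6% of genes, with *Pcsk5* at 2.24 and 2.41 (beside 2.22 and 2.45) and *Tll1* at 2.82 and 3.82 (beside 1.29 and 1.61). Most of these long genes thus lay near the median of their span in *Mgp*-KO.

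The extracellular binders went both ways. *Grem1*, a secreted binder of *Bmp2* and *Bmp4*, was at 0.48 CPM in *Mgp*-KO and 0.105 in *Pd*-KO against 2.27 in wild-type. In *Pi16*-gated cells *Grem1* was at 0.415 and 0.0242 CPM against 0.395, with too few UMIs for a 2-fold call. The part of cell makeup in its all-cell levels was not tested. *Sostdc1*, a secreted BMP and Wnt antagonist, was at 2.91 and 2.57 CPM against 12.2, and *Bmper*, which binds BMPs, was higher at 1.67 and 1.59 on the log2 scale beside 1.66 and 1.90 for genes of like span. Of the 7 targets, none was past 2-fold in *Mgp*-KO and 1 was, upward, in *Pd*-KO, against 22.2% and 27.6% of genes. Their median log2 ratio was 0.17 and −0.18, against 0.11 and 0.17 over all genes tested. Those medians are not of genes of like span. For the short *Id* genes, medians of like span were −0.22 to −0.18 in *Mgp*-KO and −0.36 to −0.28 in *Pd*-KO. For the other targets they were 0.06 to 0.54 and 0.11 to 0.69. Between the knockouts, *Mgp*-KO over *Pd*-KO, 2 of 4 other ligands, 1 of 7 receptors, 1 of 3 co-receptors and 2 of 6 proteases were past 2-fold, all downward, with no target among them, against 9.96% of genes. In *Pi16*-gated cells, 1 of 6 targets with enough UMIs was past 2-fold upward in *Mgp*-KO over wild-type (16.8% of genes), and 1 upward and 1 downward in *Pd*-KO over wild-type (22.7%). Both were named after their values were seen. *Smad6*, an inhibitory SMAD, was at 8.77 and 9.50 CPM in *Mgp*-KO and *Pd*-KO against 3.62 in wild-type (log2 ratios of 1.28 and 1.39, beside 0.41 and 0.59 for genes of like span). *Id1*, a target that blocks differentiation factors, was at 31.6 CPM in wild-type, 29.8 in *Mgp*-KO and 4.91 in *Pd*-KO, a log2 ratio of −2.69 (−2.91 to −2.47) in *Pd*-KO over wild-type beside −0.34. Between the knockouts, 2 of 7 targets were past 2-fold in this gate, both higher in *Mgp*-KO (4.69% of genes): *Id1* at 2.60 and *Id3* at 1.06.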

How the data were processed

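The deposited files hold the UMI count of every gene in every barcode, without filter or normalization, which the authors made from 10x Genomics 3′ v3 libraries. The submitters' processing notes name Cell Ranger 6.1.1 and GRCm39, the paper names mm10, and the file headers name Cell Ranger 4 (wild-type) and 7.1.0 (both knockouts). The 3 files hold 184102026, 93212243 and 83942865 UMIs, of which 145242566, 89572427 and 76383468 lay in kept cells. Counts of a ligand were summed over the cells of a gate and library. Doublets were not called, and cells passing several gates were set aside. Levels have exact Poisson, shares exact Clopper-Pearson and log2 ratios exact conditional binomial 95% intervals. Genes were compared from 100 UMIs over both libraries, with 0.5 counts added. Spans came from GENCODE M21 (GRCm38), with 99.8% of genes matched. Genes are named if they are ligands, *Mgp*, markers, the 5 most alike per ligand, or pathway genes past 2-fold in both knockouts. *Id1* and *Id3* did not meet that rule and were named after their values were seen. An item of the pathway list is not reported here. The members and gene lists were chosen with earlier results of these data known, and the split by sex was added after the data had been seen. Alternatives changed the filters, gates, scaling, weights, sex and span. The ratios with their intervals, the 2-fold calls and the thinning were tested on simulated counts, and the other steps were not. The simulated ratios had counting error only, so they could not test whether the intervals cover the spread between cells or mice. All steps were run in Python 3.11.15 with NumPy 2.4.6, SciPy 1.17.1, pandas 2.3.3, Matplotlib 3.10.9 and Biopython 1.88.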

Additional observations from a re-analysis of the deposited data

Results flagged for a closer look

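For 3 ligands the ratio of female over male cells lay on opposite sides of 0 in different genotypes, with 95% counting intervals that exclude 0 on each side. The difference between genotypes was not tested, as there was 1 library each. Over all kept cells, *Bmp2* was at −0.57 on the log2 scale in wild-type (−0.71 to −0.44) and −0.23 in *Mgp*-KO (−0.41 to −0.05) but 0.43 in *Pd*-KO (0.22 to 0.65). *Bmp6* was at −0.51 in wild-type (−0.79 to −0.22) and 0.46 in *Pd*-KO (0.34 to 0.58). In *Pi16*-gated cells, *Bmp2* was at −0.51 in wild-type (−0.82 to −0.20) and 0.94 in *Pd*-KO (0.67 to 1.21), and *Bmp6* at −0.42 in wild-type (−0.83 to −0.02), 0.38 in *Mgp*-KO (0.13 to 0.64) and 0.86 in *Pd*-KO (0.72 to 0.99). *Bmp7* in this gate was at −0.43 in wild-type (−0.64 to −0.23) and 0.17 in *Pd*-KO (0.05 to 0.28).

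Over all kept cells, the middle 90% of genes had ratios from −0.40 to 0.82 in wild-type, −0.39 to 1.33 in *Mgp*-KO and −0.37 to 0.71 in *Pd*-KO. There *Bmp2* and *Bmp6* lay outside that range in wild-type and inside it in both knockouts. *Bmp4* (−0.65) and *Bmp7* (−0.70) lay outside it in wild-type as well, *Bmp7* (−0.51) also in *Mgp*-KO and *Bmp4* (−0.45) also in *Pd*-KO. In *Pi16*-gated cells the range was −0.33 to 0.58 in wild-type, −0.32 to 0.54 in *Mgp*-KO and −0.46 to 0.46 in *Pd*-KO. *Bmp2* and *Bmp6* lay outside it in wild-type and *Pd*-KO, and *Bmp7* and *Bmp4* (−0.62) in wild-type. Of the female and male cells, 18.3% and 23.9% were *Pi16*-gated in wild-type, 34.3% and 48.3% in *Mgp*-KO and 40.7% and 52.3% in *Pd*-KO. Median depths of female and male *Pi16*-gated cells were 13114.5 and 14920.5 UMIs in wild-type, 6651 and 8407 in *Mgp*-KO and 10381 and 10322 in *Pd*-KO. The part of single mice in these ratios was not tested, since cells could not be assigned to mice.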

How the results depend on the processing

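Each library is 1 sample of a genotype, so no value has a replicate error, and counting intervals understate the spread between mice. No paired analysis was possible because there was 1 library per genotype. Of 135 ratios over all kept cells under the alternatives, 126 had the sign of the reported value and 66 moved by more than its counting interval. Within gates 454 of 475 kept the sign and 76 moved. The *Rgs5* gate was highest for *Bmp2* and *Bmp5* and the *Pi16* gate for *Bmp7* in each library under all 7 alternatives tried, whereas for *Bmp4* in wild-type the *Pi16* gate took the place of *Pecam1* in 3 of 7, and in 1 of 7 for *Bmp6* in wild-type and *Pd*-KO; for *Bmp4* in *Mgp*-KO *Pecam1* took the place of *Pi16* in 1 of 7. With at most 5% mitochondrial UMIs, the log2 ratio in *Mgp*-KO over wild-type was 0.24 for *Bmp2*. In cells called female, the log2 ratio in *Mgp*-KO over wild-type was 0.40 for *Bmp2*, 0.29 for *Bmp4*, −0.15 for *Bmp5*, 1.84 for *Bmp6* and 1.41 for *Bmp7*, in *Pd*-KO over wild-type 0.01 for *Bmp2*, 0.34 for *Bmp4*, 2.15 for *Bmp5*, 3.78 for *Bmp6* and 2.25 for *Bmp7*, in *Mgp*-KO over *Pd*-KO 0.39 for *Bmp2*, −0.05 for *Bmp4*, −1.94 for *Bmp6* and −0.84 for *Bmp7*. With scaling by the median ratio of genes, the log2 ratio in *Mgp*-KO over wild-type was 0.02 for *Bmp2* and 1.14 for *Bmp7*, in *Pd*-KO over wild-type −0.74 for *Bmp2*, 0.02 for *Bmp4*, 2.96 for *Bmp6* and 1.74 for *Bmp7*. With each cell weighted equally, the log2 ratio in *Mgp*-KO over wild-type was −0.23 for *Bmp2* and 1.09 for *Bmp6*, in *Pd*-KO over wild-type −0.82 for *Bmp2*, −0.09 for *Bmp4*, 2.75 for *Bmp6* and 1.76 for *Bmp7*, in *Mgp*-KO over *Pd*-KO 0.06 for *Bmp4* and −0.48 for *Bmp7*. With the median of the 200 genes nearest in span taken off, the log2 ratio in *Mgp*-KO over wild-type was 0.23 for *Bmp2*, 0.12 for *Bmp4*, −1.44 for *Bmp5*, 0.52 for *Bmp6* and 0.76 for *Bmp7*, in *Pd*-KO over wild-type −0.40 for *Bmp2*, 0.37 for *Bmp4*, 0.57 for *Bmp5*, 1.93 for *Bmp6* and 1.17 for *Bmp7*, in *Mgp*-KO over *Pd*-KO −1.34 for *Bmp6* and −0.46 for *Bmp7*. In cells called male, the log2 ratio in *Mgp*-KO over wild-type was −0.17 for *Bmp4*, in *Pd*-KO over wild-type −1 for *Bmp2*, 1.17 for *Bmp5*, 2.82 for *Bmp6* and 1.67 for *Bmp7*, in *Mgp*-KO over *Pd*-KO 1.06 for *Bmp2*, −1.67 for *Bmp5*, −1.30 for *Bmp6* and −0.45 for *Bmp7*. With the gated types weighted as in wild-type, the log2 ratio in *Mgp*-KO over wild-type was 0.51 for *Bmp5*, 1.16 for *Bmp6* and 0.81 for *Bmp7*, in *Pd*-KO over wild-type −0.77 for *Bmp2*, −0.35 for *Bmp4*, 2.06 for *Bmp5*, 2.52 for *Bmp6* and 1.24 for *Bmp7*, in *Mgp*-KO over *Pd*-KO 0.96 for *Bmp2*, 0.22 for *Bmp4*, −1.55 for *Bmp5*, −1.36 for *Bmp6* and −0.42 for *Bmp7*. With at least 5000 UMIs per barcode, the log2 ratio in *Pd*-KO over wild-type was 1.09 for *Bmp5*, in *Mgp*-KO over *Pd*-KO −0.39 for *Bmp4* and −0.76 for *Bmp7*. The gated types weighted as in wild-type, and gates set on thinned cells, were chosen after seeing the data. With genes of at least 20 UMIs, 5286 were past 2-fold in *Mgp*-KO over wild-type in place of 3399, 6234 in *Pd*-KO over wild-type in place of 4202, and 2599 in *Mgp*-KO over *Pd*-KO in place of 1496. Depth limits the *Adipoq* gate, the endothelial subsets and the 45 mural cells of *Mgp*-KO, where single UMIs move a level.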
